A study of Mus musculus with 14 samples.

Results

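A set of 89 genes was followed into THY-Tau22 mice, out of 25933 genes with values in the learning experiment. They are named training-induced because they were chosen as higher in trained than in home-cage wild-type (WT) mice. Whether training itself raised them was not tested. Poly-A RNA from the dorsal hippocampus of male C57BL6 mice aged 8 months was sequenced, with 1 library per sample. The learning experiment held 9 libraries in 4 groups. WT_VEH (n = 2) were WT mice injected with saline and trained in the Morris water maze, and WT_VEH_HC (n = 3) were WT mice injected with saline and kept in the home cage. TAU_VEH (n = 2) were trained THY-Tau22 mice injected with CSP, a glucose-derived carbon nanosphere that carries the drug, and TAU_MOL (n = 2) were trained THY-Tau22 mice injected with CSP-TTK21, the nanosphere bound to an activator of the acetyltransferases CBP and p300. Trained mice were killed 1 h after the last trial. A second experiment held untrained mice, WT_basal (n = 3) and TAU_basal (n = 2). The authors describe no injection for this experiment, though an appendix legend names its groups WT VEH and TAU VEH. THY-Tau22 mice, kept on a C57BL6/J background, carry a mutated human Tau transgene in neurons under a Thy1.2 promoter. WT controls received saline and not CSP, and no THY-Tau22 home-cage library of the learning experiment was analysed here, so genotype, carrier and the response to training cannot be told apart in the trained THY-Tau22 groups.

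The genes were chosen on normalized read counts, that is, counts divided by 1 factor per library. A gene had to average at least 100 over the 9 libraries, and its WT_VEH_HC replicate 3 had to stay under 1.5 times the mean of the other 2. The remaining 12344 genes were ranked by the lower WT_VEH value divided by the highest WT_VEH_HC value, and the first 100 were kept. The immediate early genes of the Fos, Jun, Egr, Nr4a and Dusp families, Arc and Npas4 were then left out, which removed 11 genes (Egr2, Fos, Arc, Dusp5, Nr4a1, Junb, Egr1, Fosb, Egr4, Dusp6 and Npas4). The remaining genes were therefore higher in both WT_VEH libraries than in all WT_VEH_HC libraries by construction, and the training contrast in WT mice is given as a description with no test. The last genes inside the limit were Fbxo30, N4bp3 and Kat2b, with ratios of 1.359, 1.356 and 1.356, and the first outside it were Nr1d2, B630005N14Rik and Chordc1, with 1.353, 1.352 and 1.350. All 89 genes also had values in the untrained table of 26570 genes.

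Depth was 24693713 to 52180305 counts per library in the learning experiment and 28639121 to 37681155 in the untrained experiment. Thy1, whose promoter drives the transgene, had 64439 to 86624 normalized read counts in the 6 THY-Tau22 libraries and 27697 to 37001 in the 8 WT libraries, without overlap. Mapt, the mouse Tau gene, overlapped between the genotypes in the learning experiment, whereas in the untrained experiment it had 22462 and 21079 in TAU_basal and 20695, 18577 and 19185 in WT_basal, without overlap. The limit on WT_VEH_HC replicate 3 was meant to remove genes of the choroid plexus, the epithelium that secretes cerebrospinal fluid in the ventricle beside the hippocampus. It removed 38 genes and left the choroid plexus marker Kl among the members. Transthyretin (Ttr), the most abundant transcript of that epithelium, had 86406 and 55075 normalized read counts in WT_VEH and 1277, 1512 and 6805 in WT_VEH_HC. It had 7047 and 8361 in TAU_VEH and 25855 and 23902 in TAU_MOL. The summed level of the 14 choroid plexus markers was 89289 to 129125 in WT_VEH, 6477 to 17055 in WT_VEH_HC, 19022 to 22128 in TAU_VEH and 44005 to 48515 in TAU_MOL, and no marker was at 0. In these bulk samples, a change in the number of cells of a type and a change in RNA per cell cannot be told apart. The members thus include genes whose levels followed these markers, and their number is given below with the values.

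Neuronal activity is followed within minutes by immediate early genes, many of them transcription factors, and then by effector genes that feed back on signalling. The CREB pathway, in which phosphorylated CREB recruits the acetyltransferase CBP to cAMP response elements (CRE), drives several of them. Handling, swimming and other stressors also raise corticosterone, which acts through the glucocorticoid receptor on genes such as Tsc22d3 and Sgk1. The period genes Per1 and Per2, repressors of the circadian clock, respond to both signals as well as to the time of day.

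Upstream sequence is shown for 3 members whose levels are described first, because they carry the elements known for the CREB and clock pathways. Each window holds the 300 bases before the annotated gene start (mm9, GENCODE vM1), written on the strand of the gene, with the matched letters in capitals. Arl4d lies at chr11:101526855-101529146 on the plus strand, and its window is chr11:101526555-101526854. Sik1 lies at chr17:31981193-31992737 on the minus strand, with the window chr17:31992738-31993037. Per1 lies at chr11:68908719-68923462 on the plus strand, with the window chr11:68908419-68908718. Capitals mark a CRE (TGACGTCA) in Arl4d and Sik1 and an E-box (CACGTG) in Per1.
Arl4d: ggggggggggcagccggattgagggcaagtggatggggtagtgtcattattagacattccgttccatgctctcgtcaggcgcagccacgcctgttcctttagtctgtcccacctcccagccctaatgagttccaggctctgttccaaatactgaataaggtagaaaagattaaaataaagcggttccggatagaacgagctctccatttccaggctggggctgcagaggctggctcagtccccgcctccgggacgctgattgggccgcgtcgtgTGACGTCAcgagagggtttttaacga
Sik1: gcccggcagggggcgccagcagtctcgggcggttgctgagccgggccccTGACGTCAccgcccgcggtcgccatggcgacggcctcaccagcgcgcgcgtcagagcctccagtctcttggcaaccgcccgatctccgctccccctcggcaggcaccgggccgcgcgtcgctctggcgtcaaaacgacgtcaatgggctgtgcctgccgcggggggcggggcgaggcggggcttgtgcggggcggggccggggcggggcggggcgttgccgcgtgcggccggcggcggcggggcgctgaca
Per1: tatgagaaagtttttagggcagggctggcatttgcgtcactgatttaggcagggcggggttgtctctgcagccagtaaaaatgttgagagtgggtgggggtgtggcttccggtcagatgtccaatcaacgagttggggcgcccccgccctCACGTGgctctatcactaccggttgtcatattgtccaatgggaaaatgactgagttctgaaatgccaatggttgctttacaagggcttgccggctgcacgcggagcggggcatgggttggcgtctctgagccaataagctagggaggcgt

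The CRE began 26 bases before the gene start in Arl4d and 251 bases before it in Sik1, and the E-box of Per1 began 150 bases before it. Both strands were searched in the same windows of all 89 genes and of 12372 genes with a mean of at least 100. A CRE was found in 2 members (2.25%), against 2.61% of all these genes. An AP-1 element (TGANTCA) was found in 4 members (4.49%, Slc37a2, Hif3a, Tnfaip6 and Kat2b), against 4.80%. The E-box was found in 9 members (10.1%, among them Per1, Igfbp2 and N4bp3), against 9.39%. Glucocorticoid response elements, NBRE elements of Nr4a receptors and CArG boxes were in 0 members, against 0.323%, 0.97% and 1.34% of all these genes. The shares of members were near those of all genes, and the match of these letters is a description only.

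Among the effector genes of neuronal activity, 5 of the 58 listed were members, Arl4d, Sik1, Per1, Sertad1 and Tiparp. Arl4d, a small GTPase of the ADP-ribosylation factor-like family, had 858 and 928 normalized read counts in WT_VEH and 415, 426 and 431 in WT_VEH_HC. It had 633 and 636 in TAU_VEH and 897 and 829 in TAU_MOL. TAU_VEH thus lay between the home-cage and the trained WT libraries, whereas TAU_MOL overlapped with trained WT. Sik1, a salt-inducible kinase that restrains CREB signalling, had 745 and 598 in WT_VEH, 307, 366 and 352 in WT_VEH_HC, 456 and 428 in TAU_VEH and 592 and 535 in TAU_MOL. Its groups did not overlap, in the order WT_VEH, TAU_MOL, TAU_VEH and WT_VEH_HC. Sertad1, a transcriptional cofactor of the cell cycle, was at 312 and 315 in WT_VEH and 213 to 229 in WT_VEH_HC, with 260 and 263 in TAU_VEH and 279 and 247 in TAU_MOL. Tiparp, an ADP-ribosyltransferase induced through the aryl hydrocarbon receptor, took the other course, with 521 and 472 in WT_VEH, 261 to 292 in WT_VEH_HC, 575 and 537 in TAU_VEH and 540 and 516 in TAU_MOL.

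Both period genes were among the members, out of 20 listed clock genes. Per1 had 7376 and 6062 normalized read counts in WT_VEH, 3541, 3646 and 4332 in WT_VEH_HC, 4152 and 4238 in TAU_VEH and 4709 and 5053 in TAU_MOL. Both TAU_VEH libraries thus fell within the home-cage range, and both TAU_MOL libraries lay above it and below trained WT. Per2 had 2422 and 2210 in WT_VEH, 1558, 1337 and 1434 in WT_VEH_HC, 1857 and 1684 in TAU_VEH and 2173 and 1922 in TAU_MOL. It showed the same group order as Sik1. The 20 clock genes summed to 72324 to 73583 in WT_VEH and 64401 to 70335 in WT_VEH_HC. Their sum was 59539 to 60415 in TAU_VEH and 65258 to 65729 in TAU_MOL. Unlike Per1 and Per2, this sum was thus lower in TAU_VEH than in all home-cage libraries. Mice were killed in the morning, at times randomized over the groups.

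The glucocorticoid-responsive members, 4 of 26 listed genes, were Tsc22d3, Sgk1, Hif3a and Per1. Tsc22d3, which encodes the glucocorticoid-induced leucine zipper GILZ, had 2495 and 2440 in WT_VEH, 1383, 1220 and 1322 in WT_VEH_HC, 2619 and 2306 in TAU_VEH and 2904 and 2510 in TAU_MOL. Sgk1, a serum- and glucocorticoid-regulated kinase, had 3700 and 4830 in WT_VEH, 2299, 2071 and 2039 in WT_VEH_HC, 4882 and 5196 in TAU_VEH and 6418 and 3638 in TAU_MOL. Hif3a, a hypoxia-inducible factor subunit, had 189 and 238 in WT_VEH, 98.9, 106 and 134 in WT_VEH_HC, 299 and 238 in TAU_VEH and 357 and 283 in TAU_MOL. In contrast to Per1 in TAU_VEH, these 3 genes were above all home-cage libraries in all 4 trained THY-Tau22 libraries, and they overlapped with or exceeded trained WT.

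**Figure D1:**
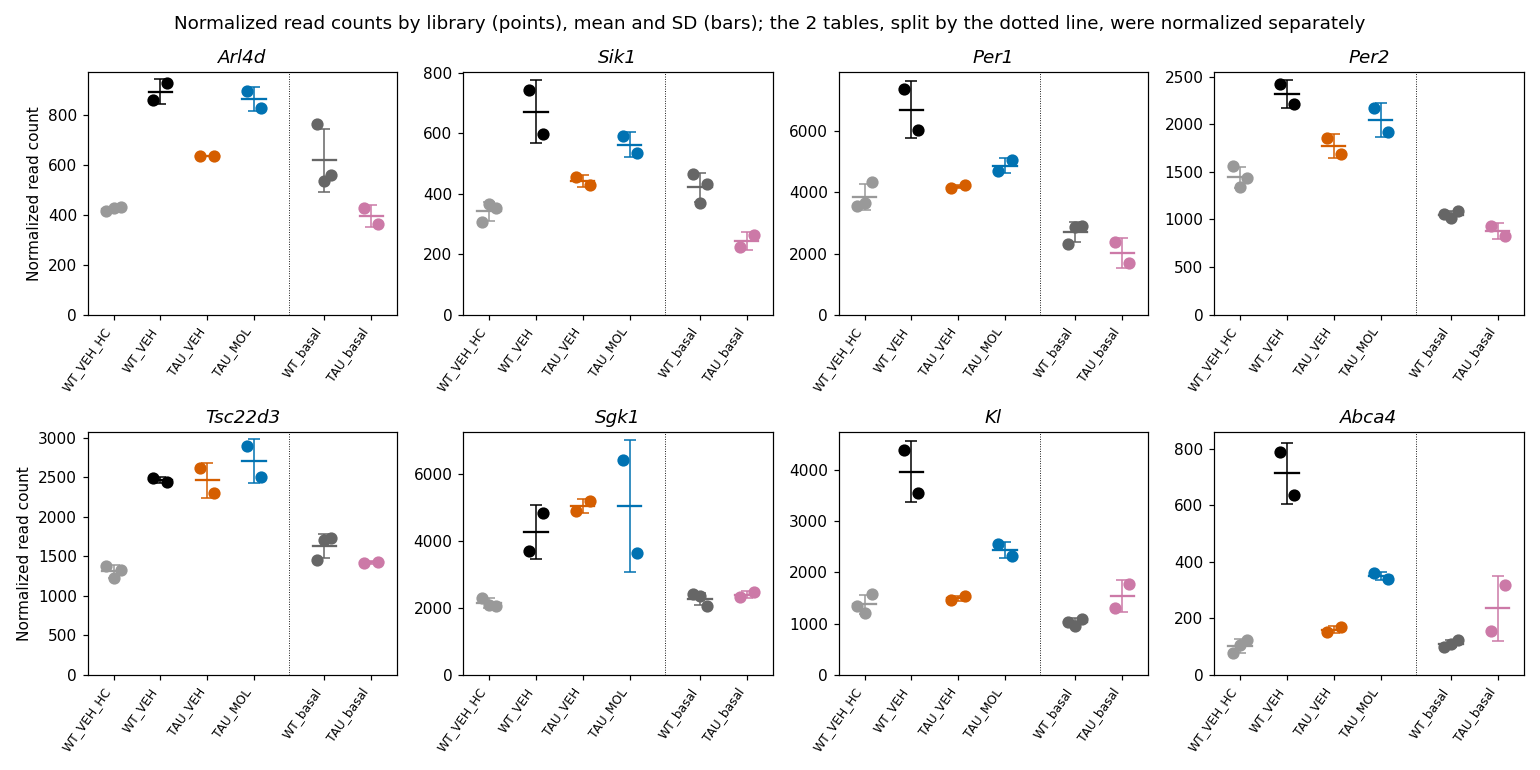
Normalized read counts (vertical axes, from 0) of 8 members in each library (points), with group means and SD as bars. The 4 learning groups are left of the dotted line and the 2 untrained groups right of it. Arl4d, Sik1, Per1, Per2, Kl and Abca4 were lower in both TAU_VEH libraries than in both WT_VEH libraries, whereas Tsc22d3 and Sgk1 overlapped with or exceeded WT_VEH.

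The first 11 members in the ranking were Abca4, Col8a1, Wdr86, Trpv4, Sulf1, Mdfic, Ace, Calml4, Col8a2, Rdh5 and Kl. Kl encodes Klotho, a coreceptor for fibroblast growth factor 23, and had 4380 and 3541 in WT_VEH, 1334, 1203 and 1576 in WT_VEH_HC, 1456 and 1528 in TAU_VEH and 2547 and 2323 in TAU_MOL. Abca4, a transporter of retinoids, had 791 and 637 in WT_VEH, 76.2, 106 and 124 in WT_VEH_HC, 151 and 169 in TAU_VEH and 360 and 339 in TAU_MOL. Ace, the angiotensin-converting enzyme, had 3264 and 2226 in WT_VEH, 638, 845 and 752 in WT_VEH_HC, 604 and 849 in TAU_VEH and 1576 and 1378 in TAU_MOL. In all 3 genes TAU_MOL lay between TAU_VEH and WT_VEH with no overlap. The cation channel gene Trpv4 had 980 and 535 in WT_VEH, 108, 117 and 147 in WT_VEH_HC, 92.0 and 144 in TAU_VEH and 260 and 242 in TAU_MOL. The collagen gene Col8a1 had 404 and 260 in WT_VEH, 25.8, 56.6 and 39.1 in WT_VEH_HC, 59.4 and 57.2 in TAU_VEH and 153 and 138 in TAU_MOL.

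The order seen in these genes, both WT_VEH libraries above both TAU_MOL libraries above both TAU_VEH libraries, was that of 13 of the 14 choroid plexus markers. It was found in 34 of the 89 members (38.2%), against 11.5% of the 12344 ranked genes. It was not particular to the choroid plexus markers. The 58 activity-regulated effector genes summed to 88587 to 93600 in WT_VEH, 86471 to 87563 in TAU_MOL and 81648 to 81957 in TAU_VEH. The sums of the clock genes and of the pyramidal cell, neocortex and meningeal markers had the same order, and those of the other lists did not. All of the first 11 members had this order. Sik1, Per1 and Per2 had it too, whereas Arl4d, Sertad1, Tiparp, Tsc22d3, Sgk1 and Hif3a did not. This order requires WT_VEH to lie above both trained THY-Tau22 groups. The members were chosen for high WT_VEH values, so these counts were fixed in part by the choice. The part of the choroid plexus in the levels of each member was not tested. The meningeal marker Igfbp2, an insulin-like growth factor binding protein, was also a member, with 3104 and 2367 in WT_VEH, 891, 1707 and 1158 in WT_VEH_HC, 883 and 971 in TAU_VEH and 1353 and 1327 in TAU_MOL. The summed level of the 8 meningeal markers was 9030 to 11441 in WT_VEH, 3520 to 11245 in WT_VEH_HC, 4460 to 4617 in TAU_VEH and 5436 to 6702 in TAU_MOL. The beta-globin genes Hbb-b1 and Hbb-b2 were members as well, and since these near-identical copies share reads their separate counts are uncertain. Hbb-b1 had 708 and 571 in WT_VEH, 335 to 388 in WT_VEH_HC, 525 and 742 in TAU_VEH and 355 and 692 in TAU_MOL. No member was on the lists of endothelial, microglial, astrocyte, oligodendrocyte or neuron markers, endoplasmic reticulum chaperones or heat shock genes.

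**Figure D2:**
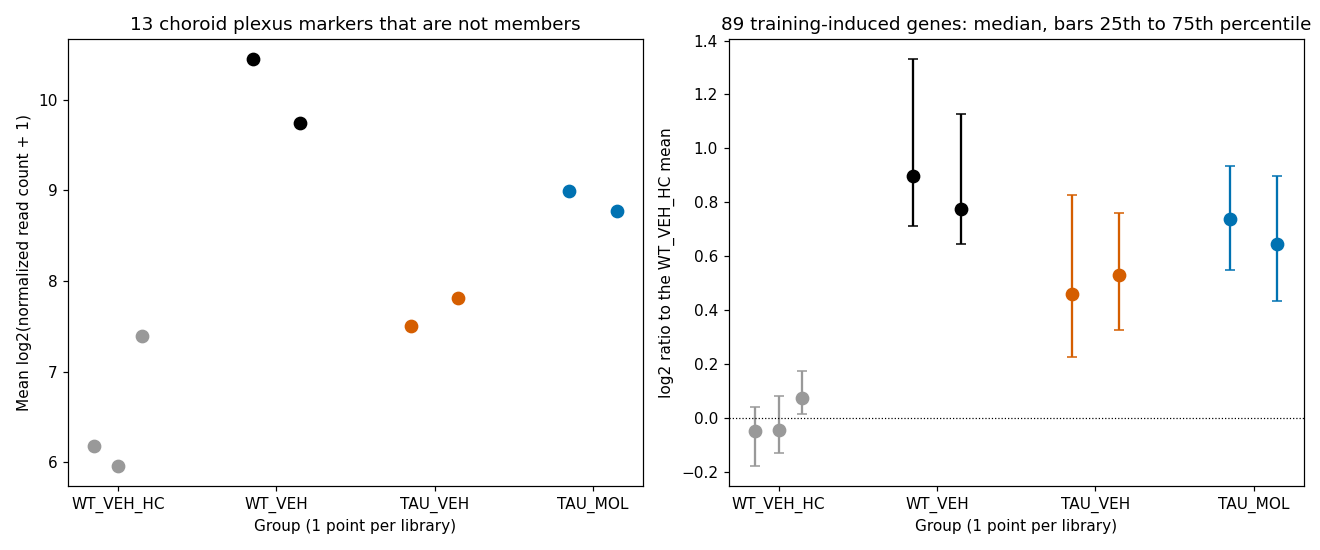
Left, the mean log2(normalized read count + 1) of the 13 choroid plexus markers that are not members, with 1 point per library. Right, the median log2 ratio of the 89 members to the WT_VEH_HC mean in the same libraries, with bars from the 25th to the 75th percentile. In both plots the 2 WT_VEH libraries are highest, TAU_MOL next and TAU_VEH below it. The members were chosen for high WT_VEH over WT_VEH_HC, so the place of WT_VEH in the right plot was fixed in part by the choice.

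Across the 89 genes, 3 courses were distinguished by the TAU_VEH libraries. In 35 genes both TAU_VEH libraries were above all home-cage libraries and not both were below WT_VEH (trained WT level). In 31 genes both were above all home-cage libraries and below both WT_VEH libraries (between). In the remaining 23 genes at least 1 TAU_VEH library was within or below the home-cage range (home-cage level), and both were below WT_VEH. The same conditions were met by 31.5%, 1.40% and 31.1% of the ranked genes. TAU_VEH was thus above all home-cage libraries in 66 members (74.2%), against 32.9% of the ranked genes, and below both WT_VEH libraries in 54 (60.7%), against 32.5%. TAU_MOL was above all home-cage libraries in 81 members (91.0%, against 30.8%) and below both WT_VEH libraries in 53 (59.6%, against 29.1%). Both TAU_VEH libraries exceeded both WT_VEH libraries in 13 members (14.6%, against 32.3%), as did both TAU_MOL libraries in 13 (14.6%, against 27.9%). Because the members were chosen for high WT_VEH and low WT_VEH_HC values, these counts were fixed in part by the choice, and nothing is read from them beyond the split.

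The median log2 ratio of TAU_VEH to WT_VEH over the members was -0.38 (SD 0.080 between the 2 libraries), and that of TAU_MOL to WT_VEH was -0.25 (SD 0.067). When the members were chosen again without 1 WT_VEH library and set against that library alone, the medians were -0.24 and -0.37 for TAU_VEH and -0.21 and -0.10 for TAU_MOL. The library left out was above all home-cage libraries in 88 and 86 of 89 genes in these 2 choices. Expressed as a share of the log2 rise of WT_VEH over WT_VEH_HC, the median was 55.9% in TAU_VEH and 71.5% in TAU_MOL. By course, the share in TAU_VEH and TAU_MOL was 7.96% and 46.3% at home-cage level, 44.6% and 67.9% between, and 107% and 111% at trained WT level. The rise in WT_VEH is what the members were chosen for, so all these shares were fixed in part by the choice. The courses were defined on the same TAU_VEH libraries. The TAU_VEH shares by course therefore follow from that definition, and their distance from the TAU_MOL shares does so in part.

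**Figure D3:**
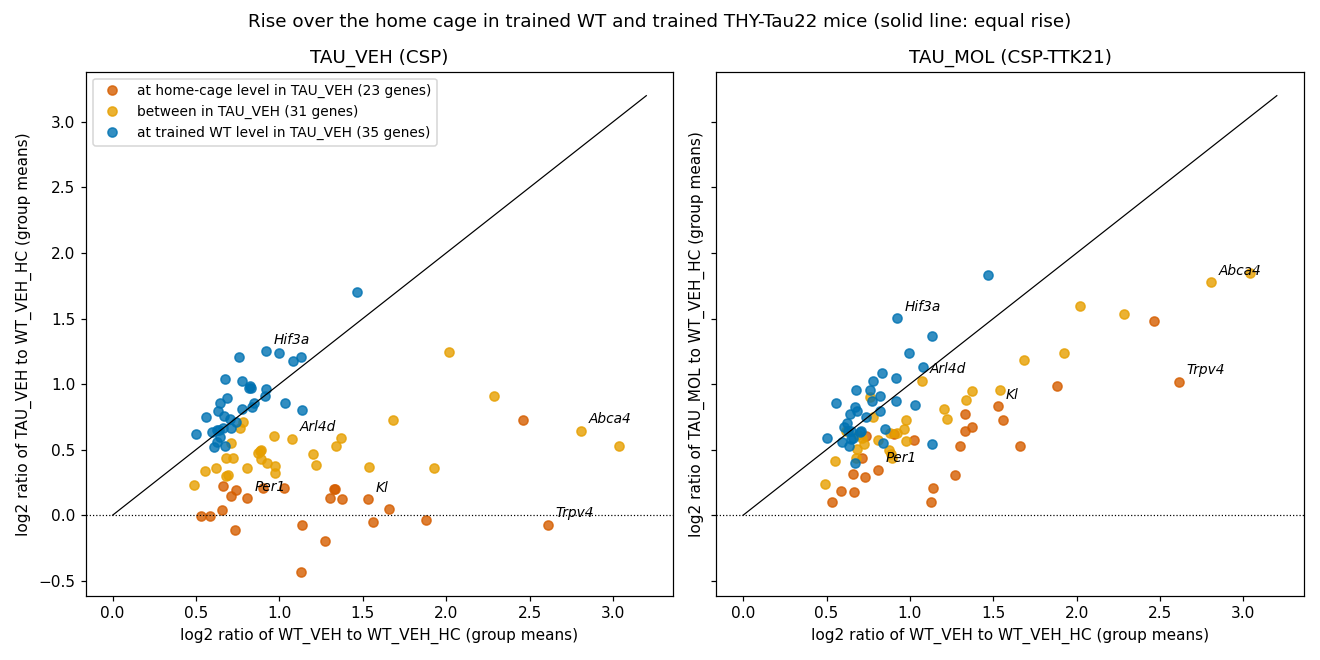
The log2 ratio of TAU_VEH (left) or TAU_MOL (right) to WT_VEH_HC against the log2 ratio of WT_VEH to WT_VEH_HC, from group means, with 1 point per gene coloured by its course in TAU_VEH. The solid line marks equal ratios, and the 35 genes at trained WT level scatter around it in both plots, whereas the genes at home-cage level lie near 0 in TAU_VEH and higher in TAU_MOL. The courses were defined on the TAU_VEH libraries, so this split was fixed in part by that definition.

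The genes at trained WT level had mixed roles. Besides Tsc22d3, Sgk1, Hif3a and Tiparp, they held the endosomal gene Plekhf1, with 229 and 271 in WT_VEH, 71.3 to 102 in WT_VEH_HC, 273 and 314 in TAU_VEH and 373 and 270 in TAU_MOL. They also held Jhdm1d, a histone demethylase, with 2034 and 1800 in WT_VEH, 1136 to 1276 in WT_VEH_HC, 2716 and 2230 in TAU_VEH and 2299 and 2349 in TAU_MOL. Jhdm1d was thus above trained WT in all 4 trained THY-Tau22 libraries. Kat2b, the acetyltransferase PCAF, had 696 and 662 in WT_VEH, 380 to 488 in WT_VEH_HC, 685 and 697 in TAU_VEH and 784 and 588 in TAU_MOL. The remaining ones included the zinc finger genes Zfp189, Zfp658, Zfp948 and Mynn, the prolyl hydroxylase subunit P4ha1, the ceramidase Acer2 and the glycogen-targeting phosphatase subunit Ppp1r3c. The median log2 ratio of TAU_VEH to WT_VEH in these 35 genes was 0.05.

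The 31 genes in between held Abca4, Col8a1, Sulf1, Mdfic, Calml4, Rdh5, Arl4d, Sik1, Per2 and Sertad1. They also held the vascular genes Slco1c1, a thyroid hormone transporter of brain endothelium, Apold1, an endothelial early response gene, and Fzd4, a Wnt receptor. Slco1c1 had 2064 and 1780 in WT_VEH, 852 to 1185 in WT_VEH_HC, 1317 and 1474 in TAU_VEH and 1518 and 1344 in TAU_MOL. Apold1 had 166 and 157 in WT_VEH, 69 to 97.5 in WT_VEH_HC, 116 and 135 in TAU_VEH and 139 and 122 in TAU_MOL. The 14 endothelial and mural cell markers summed to 12701 to 13481 in WT_VEH, 10826 to 19012 in WT_VEH_HC, 10661 to 11305 in TAU_VEH and 10771 to 11176 in TAU_MOL. The median log2 ratio of TAU_VEH to WT_VEH in the 31 genes was -0.46.

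The 23 genes at home-cage level had a median log2 ratio of -1.13. They held Wdr86, Trpv4, Ace, Col8a2, Kl, Sema3b, Col9a3, Nid2, Pcolce, Msx1, Lbp and Igfbp2, with Per1 the one activity-regulated and clock gene among them. The marker order described above was found in 19 of these 23 genes (82.6%) and in 15 of the 31 between (48.4%). It requires both TAU_VEH libraries to lie below WT_VEH, so that genes at trained WT level could not have it and these shares follow in part from the definition of the courses. When the mean log2 level of the 14 markers was added to the fit as a covariate, the median log2 fold change of TAU_VEH over WT_VEH was -0.10 for all 89 genes, against -0.39 without it. By course it was -0.40 at home-cage level, -0.22 between and 0.24 at trained WT level, against -1.18, -0.48 and 0.04 without it. The covariate follows the groups and includes Kl itself, so its part and that of the groups cannot be told apart.

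GC content moved with the split as well. The median GC content of the exons was 56.3% at home-cage level, 46.8% in between and 44.3% at trained WT level, against 50.2% for genes with a mean of at least 100. In the 3084 genes with the lowest GC content (up to 45.4%) the median log2 ratio of TAU_VEH to WT_VEH was 0.16, and in the 3084 with the highest (above 54.9%) it was -0.25. With a correction for GC content and length in each library, the fitted medians were -1.005 at home-cage level, -0.54 in between and -0.06 at trained WT level. The direction at trained WT level thus turned, while the other 2 kept theirs.

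**Figure D4:**
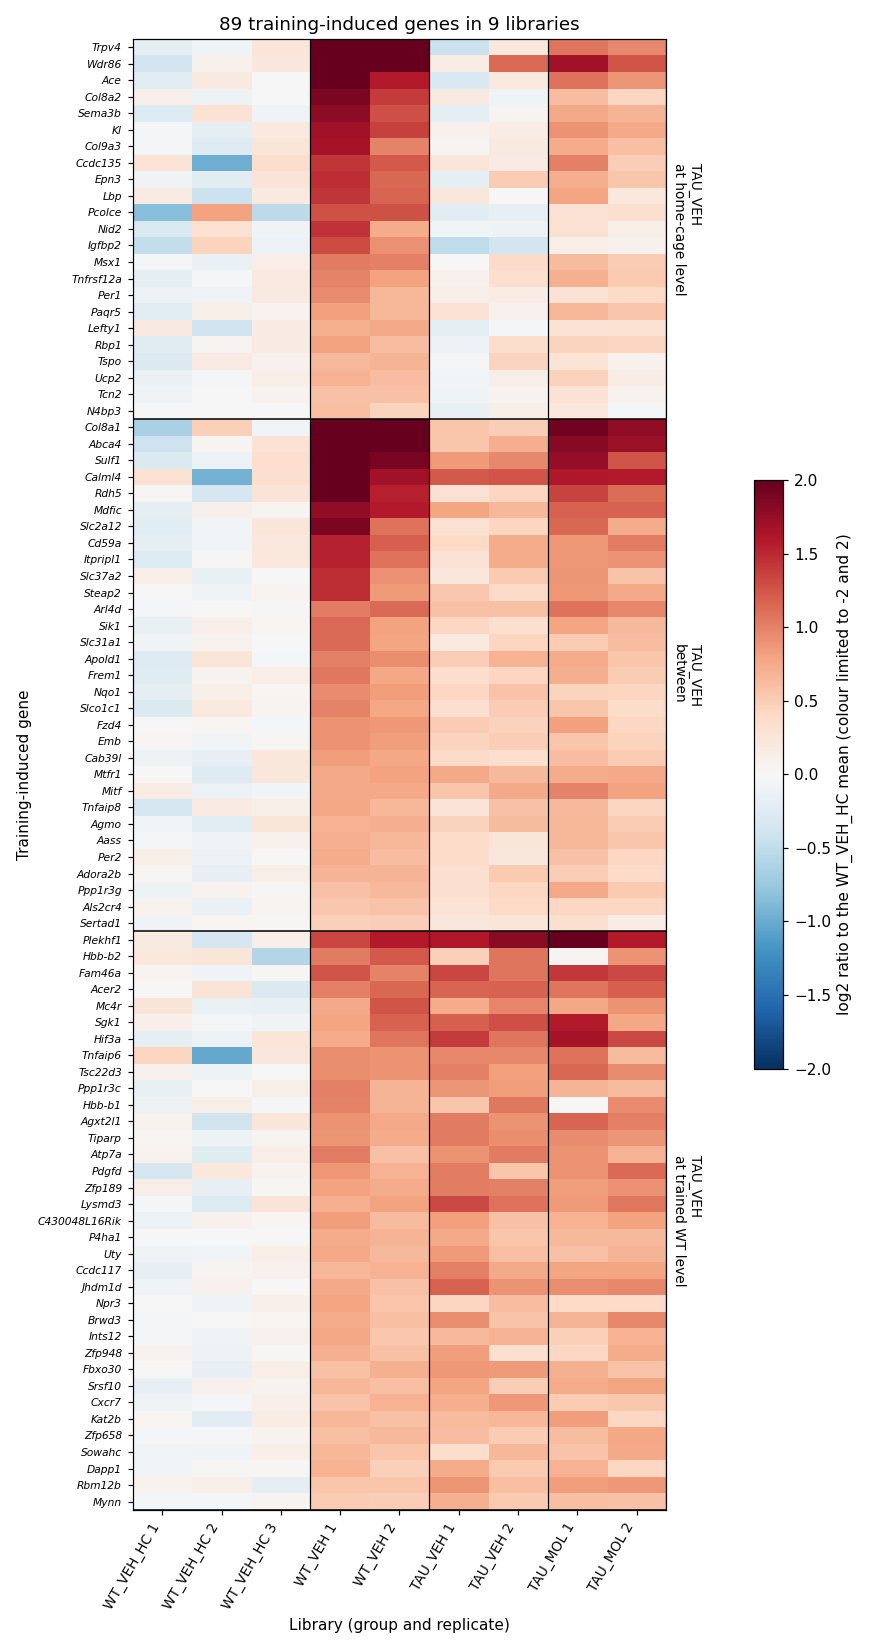
The log2 ratio of each library to the WT_VEH_HC mean (colour, limited to -2 and 2) for the 89 members (rows) in 9 libraries (columns), ordered by course in TAU_VEH and then by the size of the WT ratio. The upper 23 genes are pale in TAU_VEH and darker in TAU_MOL, the middle 31 intermediate, and the lower 35 are similar in all trained groups. These differences were fixed in part by the definition of the courses on TAU_VEH.

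The question of whether CSP-TTK21 changed these genes in trained THY-Tau22 mice was tested with TAU_MOL against TAU_VEH. The choice of members used these libraries only in the mean over the 9 libraries. A gene near that limit could pass through high TAU_MOL values, so the contrast is not wholly independent of the choice. The fitted level of 65 of the 89 members was higher with CSP-TTK21 (73.0%, against 52.8% of the 16820 genes tested) and that of 24 was lower (27.0%, against 47.1%). Both TAU_MOL libraries were above both TAU_VEH libraries in 41 members (46.1%, against 22.1% of the ranked genes) and below both in 7 (7.87%, against 18.6%). The 41 were 19 of the 23 genes at home-cage level, 21 of the 31 between and 1 of the 35 at trained WT level. The 7 were all at trained WT level. All courses were defined on the same TAU_VEH libraries that TAU_MOL is compared with here. The split of the 41 and of the 7 by course was therefore fixed in part by that definition. Whether the treatment acted more on some courses than on others cannot be read from it. The median fitted log2 fold change of the members was 0.16, against 0.01 for the 16820 genes tested, and it was 0.02 with the choroid plexus covariate. That covariate was 7.72 and 8.01 in TAU_VEH and 9.16 and 8.95 in TAU_MOL, without overlap. Its part and that of the treatment thus cannot be told apart.

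In the edgeR quasi-likelihood test with Benjamini-Hochberg adjustment, 0 members were called (adjusted p under 0.05 and log2 fold change beyond 0.2), and the background was 0 genes (0%) in both directions. At an unadjusted p under 0.05, edgeR gave 23 members higher (25.8%, against 3.82% of all genes) and 1 lower, Cxcr7 (1.12%, against 2.50%). DESeq2 called 6 members higher, against 0.196% of all genes, and 0 lower, against 0.137%. The 6 were Abca4, Kl, Ace, Col8a1, Trpv4 and Arl4d. With every gene of at least 1 count in the fit edgeR called 15 members higher (against 0.551% of all genes) and 0 lower (0.347%), and with the 2 groups alone 9 higher (0.251%) and 0 lower (0.116%).

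Abca4 differed by a log2 fold change of 1.14 (SE 0.19, edgeR adjusted p = 0.213, DESeq2 adjusted p = 5.62e-05) and Kl by 0.71 (SE 0.13, edgeR adjusted p = 0.213, DESeq2 adjusted p = 5.62e-05). Ace differed by 1.04 (SE 0.20, edgeR adjusted p = 0.213, DESeq2 adjusted p = 0.0341), Col8a1 by 1.32 (SE 0.30, edgeR adjusted p = 0.254, DESeq2 adjusted p = 0.0119) and Trpv4 by 1.14 (SE 0.29, edgeR adjusted p = 0.353, DESeq2 adjusted p = 0.0112). Over 13 alternatives the range of the adjusted p was 2.90e-10 to 1 for Abca4, 1.02e-11 to 1 for Kl, 1.70e-22 to 1 for Ace, 8.56e-07 to 1 for Col8a1 and 7.71e-09 to 1 for Trpv4. All 5 genes had the order of the choroid plexus markers.

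Arl4d was the one of these 6 without the choroid plexus order, and it differed by 0.45 (SE 0.085, edgeR adjusted p = 0.213, DESeq2 adjusted p = 0.0499, from 0.0163 to 1 over 13 alternatives). With the choroid plexus covariate its fitted difference was 0.46 (edgeR adjusted p = 0.706). With that covariate the difference was 1.16 for Col8a1, 0.82 for Ace and 0.73 for Sema3b (0.79 without it). It was 0.73 for Abca4, 0.36 for Kl, 0.48 for Trpv4 and 0.27 for Rdh5 (0.88 without it). The covariate separates TAU_VEH from TAU_MOL and includes Kl itself. Its part and that of the treatment therefore cannot be told apart in any of these genes. Without the covariate, Sema3b differed with SE 0.20 (edgeR adjusted p = 0.353) and Rdh5 with SE 0.24 (edgeR adjusted p = 0.406). Sik1 was higher by 0.35 and Per2 by 0.21 in TAU_MOL as log2 ratios of group means, and Per1 by 0.22, each without overlap of the libraries. With the covariate the fitted difference of Per1 turned to -0.04. Tsc22d3 (0.14), Sgk1 (-0.003) and Tiparp (-0.07) overlapped between CSP and CSP-TTK21.

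Over the wider lists, 0 genes were called by edgeR. For all genes tested, 52.8% were higher, 3.82% were higher and 2.50% lower at an unadjusted p under 0.05, and the median was 0.01. Of 58 activity-regulated effector genes, 37 had a higher fitted level in TAU_MOL, with 8 at an unadjusted p under 0.05 and 3 lower at that level, and a median log2 fold change of 0.09. Of 20 clock genes, 17 were higher, 7 of them at an unadjusted p under 0.05, with a median of 0.16. Of 26 glucocorticoid-responsive genes 15 were higher, 1 at that level, with a median of 0.04. All 14 choroid plexus markers were higher, 13 at that level, with a median of 1.23. Of the pyramidal cell markers 5 of 6 were higher (2 at that level, median 0.27), of the interneuron markers 6 of 6 (3 at that level, median 0.24) and of the neocortex markers 5 of 5 (3 at that level, median 0.24). Their summed levels were 25256 to 25386, 29913 to 31011 and 4520 to 5035 in TAU_VEH and 30678 to 32367, 34362 to 37902 and 5491 to 5891 in TAU_MOL. The pan-neuronal genes had the opposite direction, with 1 of 5 higher, 3 lower at that level, a median of -0.17 and sums of 166898 to 167500 and 149634 to 151472. The pyramidal cell sums were 35871 to 38991 in WT_VEH and 27807 to 38585 in WT_VEH_HC. The neocortex sums were 6198 to 6389 in WT_VEH and 6130 to 6486 in WT_VEH_HC. Both were thus lower in TAU_VEH than in all WT libraries of the learning experiment. The interneuron sums were 32506 to 34173 in WT_VEH and 29761 to 36753 in WT_VEH_HC, which overlapped with TAU_VEH. The part of these cells and regions in the result and in the courses of the members was not tested. Of 37 endoplasmic reticulum chaperone genes 18 were higher (median -0.005), and of 24 heat shock genes 8 (median -0.03). The medians of the marker lists not yet named were between -0.24 (blood) and 0.07 (thalamus).

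Whether the members differed between the genotypes without training was tested in the untrained mice. Of the 89 genes, 14 were higher in both TAU_basal libraries than in all WT_basal libraries (15.7%, against 7.64% of genes with a mean of at least 100) and 14 were lower (15.7%, against 9.71%). With edgeR, 0 members were called higher (background 0.00613%) and 0 lower (background 0.0184%). At an unadjusted p under 0.05, 9 were higher (10.1%, against 2.59%) and 7 lower (7.87%, against 2.33%). DESeq2 called 1 member higher, Ace (background 0.165%), and 1 lower, Sik1 (background 0.0796%). The fitted level was higher in 52 members (58.4%, against 48.4% of all genes) and lower in 37 (41.6%, against 51.6%). The median fitted log2 fold change was 0.05, against -0.01 for the 16324 genes tested, and it was -0.12 without TAU_basal replicate 2. With every gene of at least 1 count in the fit edgeR called 3 members higher (against 0.297% of all genes) and 2 lower (0.211%).

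Sik1 had 465, 370 and 431 normalized read counts in WT_basal and 222 and 264 in TAU_basal. The groups did not overlap, with a log2 fold change of -0.80 (SE 0.16, edgeR adjusted p = 0.235, DESeq2 adjusted p = 0.0271). Arl4d had 763, 533 and 557 in WT_basal and 425 and 364 in TAU_basal, with a log2 fold change of -0.65 (SE 0.18, edgeR adjusted p = 0.860, DESeq2 adjusted p = 0.268). Per1 had 2322, 2870 and 2893 in WT_basal and 2371 and 1680 in TAU_basal, which overlapped. Per2 had 1054, 1013 and 1083 in WT_basal and 934 and 821 in TAU_basal, and Sertad1 288, 284 and 209 against 221 and 177. Apold1 had 138, 94.7 and 101 in WT_basal and 62.9 and 71.8 in TAU_basal, without overlap. Over 12 alternatives the range of the adjusted p was 0.00853 to 0.777 for Sik1 and 0.0404 to 1 for Arl4d.

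For comparison, 48.4% of all genes tested were higher, and 2.59% were higher and 2.33% lower at an unadjusted p under 0.05. Of the 58 activity-regulated effector genes, 18 had a higher and the others a lower fitted level in TAU_basal, with 0 higher and 12 lower at an unadjusted p under 0.05, a median of -0.10 and 0 calls by edgeR. Of 20 clock genes 3 were higher, with 1 higher and 4 lower at that level, a median of -0.18 and 0 calls. Of 37 endoplasmic reticulum chaperone genes 13 were higher (median -0.08), and of 24 heat shock genes 7 (median -0.07). Among the marker lists, the 5 thalamus markers had a median of -0.73, the 5 blood markers, which include both Hbb genes, -0.53 (0 of 5 higher), the 6 oligodendrocyte markers -0.51, the 14 endothelial and mural cell markers 0.20 (14 of 14 higher), the 8 meningeal markers 0.62 and the 14 choroid plexus markers 0.90. Of the 8 microglia markers 7 were higher (median 0.19), with sums of 16048 to 16798 in WT_basal and 18111 to 18711 in TAU_basal. The meningeal sums overlapped (3517 to 5454 and 4050 to 8481), as did the thalamus sums (2664 to 6634 and 2624 to 3691). The medians of the remaining marker lists were between -0.05 (neocortex) and 0.16 (interneurons). The part of these cell types and regions in the levels of the members was not tested.

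Tsc22d3 had 1452, 1710 and 1728 in WT_basal and 1413 and 1433 in TAU_basal, Sgk1 2405, 2342 and 2049 against 2318 and 2466, and Hif3a 70.7, 51.4 and 64.6 against 51.0 and 110. Of the 26 genes on that list, 25 were tested and 13 were higher, with 2 higher and 3 lower at an unadjusted p under 0.05, a median of 0.05 and 0 calls by edgeR. Tsc22d3 was lower without overlap, by a log2 ratio of -0.20, and the other 2 overlapped.

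Ace had 549, 526 and 509 in WT_basal and 864 and 1104 in TAU_basal, a log2 fold change of 0.90 (SE 0.13, edgeR adjusted p = 0.101, DESeq2 adjusted p = 6.14e-05). Kl had 1037, 959 and 1097 in WT_basal and 1309 and 1763 in TAU_basal, a log2 fold change of 0.57 (SE 0.14, edgeR adjusted p = 0.661, DESeq2 adjusted p = 0.106). Abca4 had 98.1, 109 and 124 in WT_basal and 154 and 317 in TAU_basal, a log2 fold change of 1.09 (SE 0.28, edgeR adjusted p = 0.684, DESeq2 adjusted p = 0.0903). In each of the 3 genes, TAU_basal replicate 2 was the highest library. That library was also the highest of 5 for 14 of 14 choroid plexus markers and for 41 of the 89 members (46.1%), against 30.3% of genes with a mean of at least 100. The summed level of the choroid plexus markers was 20708 to 24866 in WT_basal and 24496 to 69513 in TAU_basal, and with them as a covariate Ace differed by 0.70 (edgeR adjusted p = 0.232), Kl by 0.36 and Sik1 by -0.92. Over 12 alternatives the range of the adjusted p was 6.14e-05 to 0.304 for Ace, 0.0398 to 0.995 for Kl and 0.00531 to 0.995 for Abca4. In 13 members (14.6%, against 2.57% of the ranked genes) both THY-Tau22 libraries lay on one side of all WT libraries without training and both TAU_VEH libraries on the opposite side of both WT_VEH libraries, a count that the choice of members fixed in part. Hbb-b2 had 221, 286 and 269 in WT_basal and 183 and 121 in TAU_basal, a log2 fold change of -0.76 (SE 0.21, edgeR adjusted p = 0.885, DESeq2 adjusted p = 0.396, from 0.0738 to 0.998 over 12 alternatives).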

How the data were processed

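Per the labels and the methods, the authors made poly-A TruSeq libraries from total RNA of the dorsal hippocampus, read single-end reads (CASAVA 1.8.2), aligned them to mm9 with TopHat2 2.0.10 and Bowtie2 2.1.0, and counted unique alignments on Ensembl genes with HTSeq 0.5.4p3. The kit does not mark strand, so overlapping antisense genes cannot be told apart. The authors deposited raw counts and, beside them, a normalized signal, which is the count divided by 1 factor per library. The members and the levels printed rest on that signal, and the untrained and learning tables were normalized separately. The authors had excluded 3 libraries of the learning experiment, which were not analysed here. They gave great variability between samples as the reason, and the 3 mice came from the same litter. These criteria were set after the data were seen. The p-values and the statements of no overlap therefore rest on the spread of the libraries that were kept. Lines without values (138) in the table of the learning experiment were left out. The labels do not say whether the samples of a group shared a litter or a day, so p-values measure the spread between these samples.

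The counts were tested with edgeR 4.0.16 in R 4.3.3 (quasi-likelihood test, TMM factors, genes kept by filterByExpr, Benjamini-Hochberg adjustment over all genes tested), with the 9 learning libraries in 1 fit and the 5 untrained libraries in another. A gene was called where its adjusted p was under 0.05 and its log2 fold change was beyond 0.2 in either direction. The common coefficient of variation was 0.084 and 0.129, so that counting error is of like size for members with few reads, such as Col8a1 and Trpv4, and smaller for those with many. DESeq2 1.42.0 was an alternative, beside other scalings, filters, a replicate block, a loess correction (span 0.3) for GC content and length, and leaving out each library of the groups compared. The test was tried on simulated data first. Gene positions and upstream sequence came from NCBIM37 with GENCODE vM1. Lists held genes known for activity, glucocorticoid, clock, chaperone and heat shock responses and markers of cell types and regions in or near the hippocampus. The members and lists were chosen with earlier results of these data known. Statistics were given for members among the first 15 of the ranking or on a list, with an unadjusted p under 0.01, a limit set after the values were seen. Other members are named as examples of a course. The figures were drawn with matplotlib 3.10.9.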

Additional observations from a re-analysis of the deposited data

Results flagged for a closer look

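In 13 members (14.6%, against 2.57% of the ranked genes), both untrained THY-Tau22 libraries lay on one side of all WT_basal libraries while both TAU_VEH libraries lay on the opposite side of both WT_VEH libraries. The difference between the experiments was not tested, and the WT_VEH values are among those that chose the members. In 11 of them THY-Tau22 was higher without training and lower after it. As log2 ratios of group means, untrained and then trained, these were Abca4 with 1.09 and -2.16, Trpv4 with 0.83 and -2.68, Ace with 0.90 and -1.92, and Kl with 0.58 and -1.41. Sema3b had 0.46 and -1.62, Nid2 0.29 and -1.21, Col8a2 0.27 and -1.61, and Mdfic 0.26 and -0.96. Itpripl1 had 0.51 and -0.81, Paqr5 0.19 and -0.55, and Nqo1 0.13 and -0.39. The other 2 were lower without training and higher after it, Ccdc117 with -0.41 and 0.21 and the chemokine receptor gene Cxcr7 with -0.18 and 0.17. Of the 13 genes, 10 had the order WT_VEH, TAU_MOL, TAU_VEH of the choroid plexus markers, whose part in the difference was not tested.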

How the results depend on the processing

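The same replicate numbers in the groups did not pair the samples. Deviations of same-numbered libraries correlated at -0.020 in the trained THY-Tau22 groups and at -0.065 and -0.164 in the untrained groups. With the replicate block, the untrained comparison gave 37 genes in place of 4, 1 of them a member (higher), and TAU_MOL against TAU_VEH gave 0 genes with a member median of 0.17. For TAU_MOL against TAU_VEH, where edgeR called 0 genes, DESeq2 called 56 genes with 6 members higher, a fit with every gene of at least 1 count 233 with 15, and a fit of the 2 groups alone 60 with 9. Leaving out 1 of the 4 libraries gave 0 to 11 genes (11 without TAU_VEH replicate 1), 0 members and member medians of 0.12 to 0.23, with a lone library of a group assumed to vary like the other groups, and leaving out WT_VEH_HC replicate 3 gave 1 gene. The member median was 0.016 with the choroid plexus covariate, an alternative chosen after seeing the data, as were the fits without WT_VEH_HC replicate 3 and the GC-corrected medians against WT. For the untrained comparison, DESeq2 called 40 genes with 1 member higher and 1 lower, the fit with every gene 125 with 3 and 2, the GC and length correction 11 and the covariate 2, both without a member. Leaving out 1 library gave 1 to 15 genes (15 without TAU_basal replicate 1, 7 without replicate 2) and 0 to 1 member higher. The member median turned from 0.05 to -0.12 both with the covariate and without TAU_basal replicate 2, and the lowest and highest without 1 library were -0.12 and 0.15. The choice of members shared 55 to 75 of 89 genes when 1 library was left out (55 without WT_VEH_HC replicate 3, 59 without WT_VEH replicate 2) and 75 without the limit on that home-cage library. When members were chosen without WT_VEH replicate 1 and set against it, the median log2 ratio was -0.24 for TAU_VEH and -0.21 for TAU_MOL. With WT_VEH replicate 2 left out in this way, the medians were -0.37 and -0.10. The median log2 ratio to WT_VEH was -0.097 for TAU_VEH and -0.072 for TAU_MOL with the covariate. The causes were not tested.

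Among the named members, log2 fold changes that were not called turned sign as follows. With the covariate, TAU_MOL against TAU_VEH gave Sulf1 -0.057, Per1 -0.043, Calml4 -0.377, Hbb-b2 0.385, Plekhf1 -0.021 and Sertad1 -0.011, and the untrained comparison Col8a1 -0.116, Sulf1 -0.151 and Hif3a -0.280. Sgk1, at 0.00056 in TAU_MOL against TAU_VEH, was -0.0045 with DESeq2, -0.0031 with its size factors, -0.024 with library size alone, -0.00084 with every gene, -0.016 with the replicate block, -0.0045 with the GC and length correction and -0.0080 with the 2 groups alone. Sertad1 was -0.011 with library size alone and -0.079 with the GC and length correction, and untrained Rdh5 was 0.0059 with the replicate block and 0.016 with the correction. Leaving out 1 library gave, in TAU_MOL against TAU_VEH, -0.467 to 0.354 for Sgk1, -0.079 to 0.102 for Sertad1, -0.817 to 0.144 for Hbb-b1, -0.727 to 0.128 for Hbb-b2 and -0.109 to 0.356 for Plekhf1, all set by TAU_MOL replicates 1 and 2, and -0.044 to 0.171 for Apold1. In the untrained comparison it gave -0.087 to 1.84 for Col8a1, -0.187 to 1.18 for Sulf1, -0.289 to 0.835 for Hif3a, -0.549 to 0.024 for Tiparp, -0.125 to 0.465 for Igfbp2 and -0.247 to 0.163 for Rdh5, all set by TAU_basal replicates 1 and 2, and -0.059 to 0.206 for Wdr86 and -0.047 to 0.173 for Cd59a.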
